A study of Homo sapiens with 8 samples.

Results

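The levels of 10 genes of the BCL2 family, which governs whether a cell commits to death through its mitochondria, were followed in Rh41 cells after knockdown of G9a. The members were chosen by name and split by textbook role. No measured value entered that rule, but earlier results of these data were known when it was set. BCL2, BCL2L1 (which encodes BCL-xL) and MCL1 are the guardians, which hold cell death back. BAX, BAK1, BBC3 (PUMA), PMAIP1 (NOXA), BCL2L11 (BIM), BID and BAD are the killers, which promote it. Each symbol stood on a single row of the deposited table, so the 10 members were 10 of its 60234 rows, 3 guardians and 7 killers.

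Guardian proteins bind the killers and keep the outer membrane of the mitochondrion closed. BAX and BAK1 are the effectors that open pores in it and let cytochrome c out, which switches on the caspases, the proteases that dismantle the cell. The other killers carry only the short BH3 segment of the family and are sensors of stress: they occupy the guardians or activate the effectors directly, so the balance of the classes, rather than any single member, is taken to set how close a cell is to death. Much of this control acts on the proteins, which were not measured here.

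Rh41 is an established human line derived from an alveolar rhabdomyosarcoma, a muscle-like tumour, and both groups carry its PAX3-FOXO1 fusion. The labels describe 4 control libraries and 4 siG9a libraries with G9a knocked down, and the design text calls the replicates biological. The series title names shG9a where the sample labels name siG9a, and the kind of control, the time after knockdown and whether more than 1 reagent was used are not given in the sources used here. G9a, the product of EHMT2, places methyl groups on lysine 9 of histone H3, a mark found at silenced genes.

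RNA was measured with QuantSeq, which reads the 3′ end of each transcript, so a level in CPM (a gene's reads scaled by the total of reads assigned to genes in that library) was compared between genes without division by length. The libraries were shallow, with 1458825 to 1938665 reads each. A single read was worth 0.516 to 0.685 CPM, and a level under 3 reads, 1.55 to 2.06 CPM, was treated as too low to read. EHMT2 checked the labels and measured 57.6 to 88.3 CPM in control and 19.6 to 58.5 CPM in siG9a, so siG9a 4 lay above control 1. The log2 change was −1.10 ± 0.31 (SE) in limma without pairing, where it was not called (adjusted p = 0.191). An exact two-sided permutation test gave p = 0.0571, and limma paired by replicate number an adjusted p of 0.000472. EHMT2 was lower in siG9a in each of the 4 pairs of same-numbered libraries, unevenly, at 34.0%, 51.6%, 37.9% and 66.3% of control. Replicate 3 stood apart in both groups. Muscle and rhabdomyosarcoma markers summed to 446 CPM (control 3) and 357 CPM (siG9a 3), against 2658 to 3152 CPM in the other controls and 1255 to 1864 CPM in the other siG9a libraries. A list of neural and HEK293-like markers summed to 10274 CPM and 9267 CPM in number 3, to 279 CPM and 301 CPM in number 1, and to 2036 to 3101 CPM in numbers 2 and 4. Most of the sum in number 3 was NEFM (8046 CPM in control 3 and 7625 CPM in siG9a 3) and NEFL (1557 and 1302 CPM). UCHL1, SOX2 and LIN28B were also highest of their group in number 3. NEFH was at 0 there, and STMN2 and INA measured 0.61 to 5.71 CPM. Epithelial markers were 75.6 and 44.0 CPM in number 3 against 10.3 to 32.7 CPM elsewhere, stroma markers 118 and 52.0 CPM against 146 to 409 CPM, and blood markers 1.04 to 5.71 CPM in all libraries, with the highest value in siG9a 3. The labels name Rh41 for all 8 libraries; the markers of number 3 go against that label in part, and its cell identity was not tested. Each call of a member was also computed without both libraries of number 3.

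Muscle markers also moved with the knockdown. Of 10 listed, MYF5 was at 0 throughout and 9 were tested, of which 5 fell in the paired limma fit, each lower in 4 of 4 pairs: the structural genes ACTC1 (−1.77), DES (−1.77) and TNNT2 (−1.75), the acetylcholine receptor gene CHRNA1 (−1.15) and the growth factor receptor gene FGFR4 (−0.59). MYOD1, the regulator that defines muscle lineage, had a log2 change of −0.03 (adjusted p = 0.935). Over all genes tested, the paired fit called 6.52% lower, and 15.3% were lower in 4 of 4 pairs. Limma without pairing called none of the 9 markers, and the paired fit without number 3 called 4 lower. The stroma, neural and epithelial lists each held 1 gene called lower in the paired fit. Of the muscle markers not called, FOXO1 averaged 177 CPM in control and 195 CPM in siG9a, MYOG 6.7 and 4.82 CPM, and PAX3 13.4 and 12.0 CPM. The part of these marker differences in the members' results was not tested. In bulk RNA, fewer cells of a type and less RNA per cell cannot be told apart.

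The question put to the members was whether knockdown of G9a shifted the guardians and the killers. The main test, a limma fit without pairing, called none of the members. In the alternative, which compared libraries within their replicate number, 3 moved. MCL1 and BBC3 rose in siG9a and BAX fell. The other 7 members were not called. These calls come from the paired fit, which compares each siG9a library with the control library of the same number, by limma on log2(CPM + 1) with adjustment over all 15092 genes tested at a threshold of 0.05. It called 1 of 3 guardians and 2 of 7 killers, against 11.4% of all genes tested, 4.86% higher and 6.52% lower in siG9a. The fit without pairing called 0 of the 10 members and 0% of all genes, with a smallest adjusted p of 0.0662 over all genes. At an unadjusted p under 0.05 that fit held 1 member, MCL1, against 12.5% of all genes, and edgeR without pairing also called no gene. DESeq2 without pairing called 291 genes, none of them a member.

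With both libraries of number 3 left out, the paired fit called MCL1, BBC3 and PMAIP1, all higher, against 7.14% of all genes. BAX was no longer called, although its log2 change was −0.55 there and −0.48 with all pairs. On the reads recovered from the CPM values, edgeR with pairing called MCL1 and BBC3 (11.3% of all genes called), and so did DESeq2 with pairing (6.42%). The siG9a and control values of a member did not separate fully for any of the 10 members, where they did for 7.32% of all genes. The direction was the same in every pair for 5 members. MCL1 and BBC3 were higher in 4 of 4 pairs, as were 14.9% of all genes, and BCL2L1, BAX and BID were lower in 4 of 4 pairs, as were 15.3%. The median log2 change was 0.16 over the 3 guardians and 0.09 over the 7 killers, beside 0.01 over all genes tested.

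**Figure D1:**
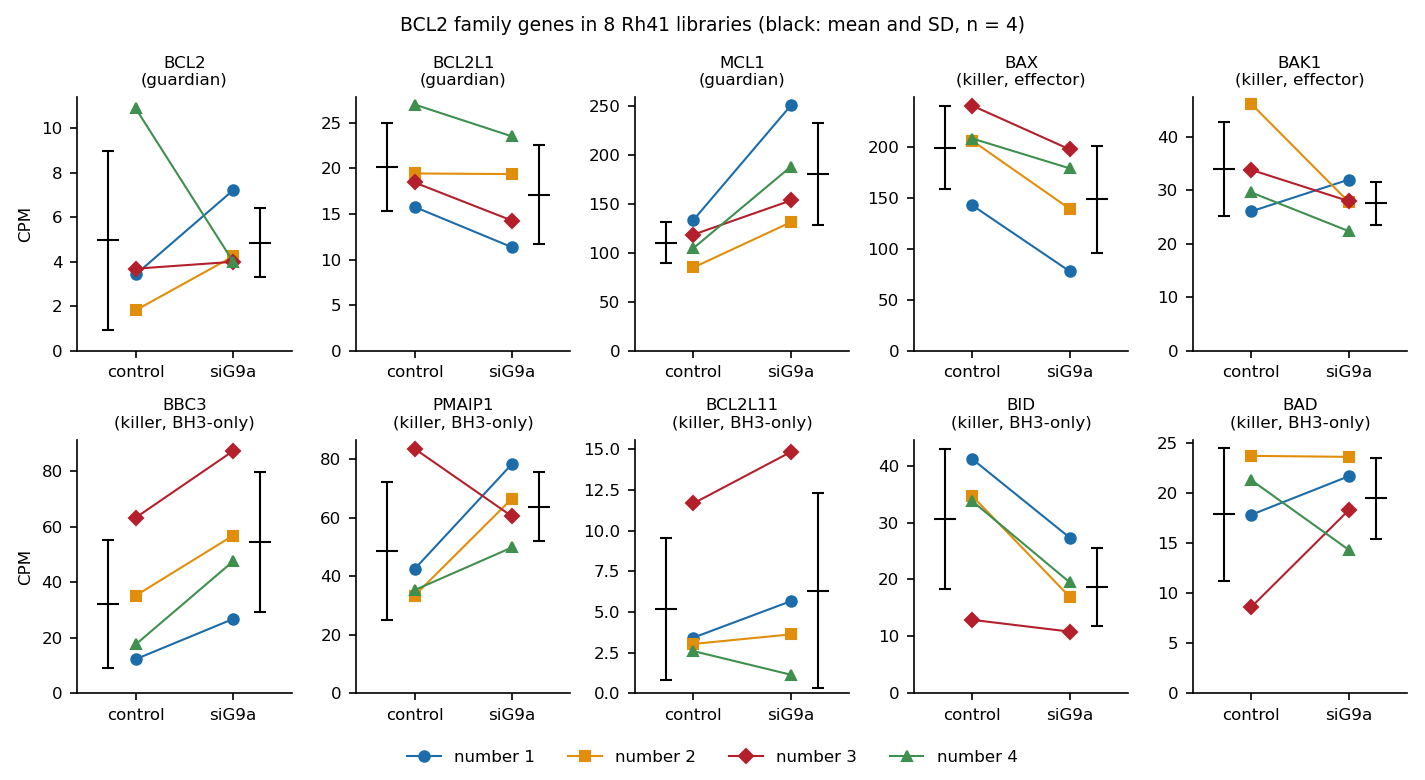
Level of each of the 10 members in CPM (vertical axes, each from 0) in the control and siG9a libraries; coloured lines join libraries of the same replicate number, and black bars give the mean and SD of 4 libraries. All 4 lines climb for MCL1 and BBC3 and all 4 descend for BAX, BCL2L1 and BID, while the control and siG9a ranges overlap in every panel.

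Among the guardians, MCL1, a short-lived protein on which many tumour cells depend, was the gene called. In control it measured 134, 85.1, 119 and 105 CPM in replicates 1 to 4, and in siG9a 251, 131, 154 and 188 CPM. Each siG9a library lay above its own control, at 188%, 154%, 129% and 179% of it, and the groups overlapped only because siG9a 2 lay just under control 1. The means were 110.6 ± 20.7 CPM and 180.9 ± 52.0 CPM (SD, n = 4 each). Limma without pairing gave a log2 change of 0.68 ± 0.24 (SE, adjusted p = 0.275), and the paired limma fit 0.68 ± 0.15 (SE, adjusted p = 0.00405, 95% interval 0.37 to 0.99). An exact two-sided permutation test of the 8 values gave p = 0.0571, where 4 against 4 cannot go below 0.0286. Without number 3 the paired change was 0.79, with an adjusted p of 0.0118 by limma.

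BCL2L1, the guardian that encodes BCL-xL, measured 15.8, 19.4, 18.4 and 27.0 CPM in control and 11.3, 19.4, 14.3 and 23.5 CPM in siG9a. It was lower in siG9a in 4 of 4 pairs, although in pair 2 siG9a stood at 99.6% of control, and the ranges of the groups overlapped widely. The log2 change was −0.25 ± 0.25 (SE) in the paired limma fit, with an adjusted p of 0.586 and a 95% interval of −0.76 to 0.27. BCL2, the founding guardian, was near the limit of these libraries. It measured 3.43, 1.82, 3.69 and 10.9 CPM in control and 7.22, 4.24, 4.00 and 4.01 CPM in siG9a, so that control 4 alone held the highest value and siG9a 1 the next. Its mean was slightly lower in siG9a (4.87 ± 1.57 against 4.96 ± 4.05 CPM, SD, n = 4 each) while its log2 change was slightly above 0, at 0.16 ± 0.42 (SE, paired limma fit, adjusted p = 0.861). Its interval, −0.70 to 1.01, spans 0.616-fold to 2.02-fold, so these values do not settle a fall or a rise within that range.

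Of the effectors, BAX fell in the paired fit. It measured 143, 206, 240.4 and 208 CPM in control and 77.9, 139, 198 and 179 CPM in siG9a. The siG9a values were 54.6%, 67.6%, 82.2% and 85.9% of the control with the same number, and the groups overlapped because control 1 was low. The means were 199 ± 41.0 CPM and 148 ± 52.9 CPM (SD, n = 4 each). The log2 change was −0.48 ± 0.29 (SE, adjusted p = 0.533) in limma without pairing and −0.48 ± 0.15 (SE, adjusted p = 0.0392) in the paired limma fit, whose interval was −0.79 to −0.17. This call was the least secure of the 3: without number 3 the change was −0.55 with an adjusted p of 0.0828 by limma, and edgeR and DESeq2 with pairing gave adjusted p-values of 0.0506 and 0.0828. Without both libraries of number 1 or of number 2, or with a pseudocount of 0.1, the paired limma call was lost as well.

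BAK1, the other effector, measured 26.1, 46.2, 33.8 and 29.6 CPM in control and 32.0, 27.8, 28.0 and 22.4 CPM in siG9a. It was lower in 3 of 4 pairs and higher in pair 1, and the log2 change of −0.27 ± 0.22 (SE) was not called in the paired limma fit (adjusted p = 0.482, 95% interval −0.72 to 0.18).

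Among the BH3-only killers, BBC3 moved in the direction opposite to BAX. BBC3 encodes PUMA, a target of p53 that binds every guardian. It measured 12.3, 35.2, 63.3 and 17.65 CPM in control and 26.8, 56.9, 87.35 and 47.6 CPM in siG9a. The siG9a values were 217%, 161%, 138% and 270% of the control with the same number, but the spread between numbers was so wide that siG9a 1 lay under 2 of the 4 controls. The means were 32.1 ± 23.0 CPM and 54.7 ± 25.2 CPM (SD, n = 4 each). The log2 change was 0.89 ± 0.47 (SE, adjusted p = 0.474) in limma without pairing and 0.89 ± 0.21 (SE, adjusted p = 0.00560) in the paired limma fit, with an interval of 0.47 to 1.32. The call held without number 3, at 1.04 with an adjusted p of 0.0180 by limma, and in the paired fits of edgeR (0.00577) and DESeq2 (0.0224).

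PMAIP1 encodes NOXA, which binds MCL1 with preference among the guardians. It measured 42.5, 33.4, 83.6 and 35.3 CPM in control and 78.4, 66.6, 60.5 and 49.9 CPM in siG9a. It was higher in siG9a in pairs 1, 2 and 4 and lower in pair 3, where control 3 was the highest of all 8 values. With all pairs the log2 change was 0.47 ± 0.21 (SE) and was not called in the paired limma fit (adjusted p = 0.156). Without number 3 the siG9a values no longer overlapped the control values, and the paired limma fit gave 0.78 with an adjusted p of 0.0399.

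BID links the death receptor pathway to the mitochondrion once caspases cut it. It measured 41.1, 34.6, 12.9 and 33.75 CPM in control and 27.3, 16.95, 10.85 and 19.5 CPM in siG9a. It was lower in siG9a in every pair, at 66.5%, 48.9%, 84.0% and 57.8% of control, and number 3 was the lowest of its group on both sides. The log2 change of −0.64 ± 0.24 (SE) was not called in the paired limma fit (adjusted p = 0.0803). Without number 3 the groups did not overlap, as for PMAIP1, and these were the only 2 of 10 members of which that held, against 22% of all genes, yet BID was still not called by limma (−0.77, adjusted p = 0.0735).

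BAD, a killer held in check by growth factor signalling, measured 17.8, 23.7, 8.61 and 21.3 CPM in control and 21.7, 23.6, 18.3 and 14.3 CPM in siG9a. It was higher in pairs 1 and 3 and lower in pairs 2 and 4. The log2 change of 0.18 ± 0.27 (SE, paired limma fit, adjusted p = 0.734) turned to −0.09 without number 3. BCL2L11 encodes BIM, which binds all guardians. It measured 3.43, 3.04, 11.7 and 2.60 CPM in control and 5.67, 3.63, 14.8 and 1.15 CPM in siG9a, the last of these from 2 reads. Number 3 was the highest on both sides. The log2 change of 0.09 ± 0.39 (SE) had an interval of −0.71 to 0.89 in the paired limma fit, that is 0.612-fold to 1.85-fold. A fall or a rise within that range is not settled by these values.

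**Figure D2:**
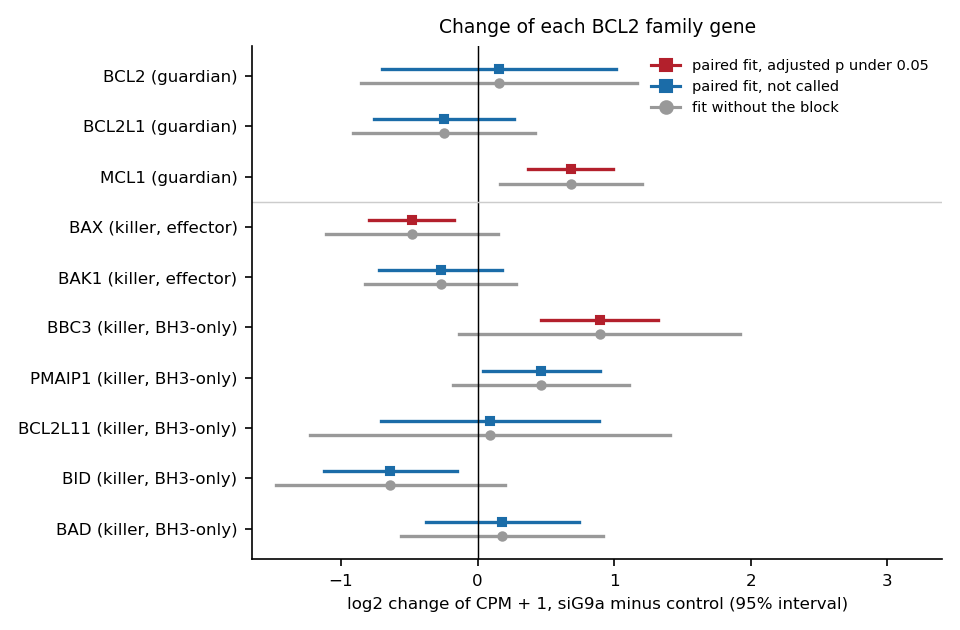
Log2 change of CPM + 1, siG9a minus control, for each member (horizontal axis) with its 95% interval; grey circles are the limma fit without pairing, squares the paired fit, red where its adjusted p was under 0.05. The estimates are the same in both fits, the paired intervals are narrower, and the 3 red squares are MCL1 at 0.68, BBC3 at 0.89 and BAX at −0.48.

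The sequences upstream of BAX and BBC3 are shown because these were the 2 killers called, in opposite directions. Both lie on chromosome 19, and the 250 bases before the start of each gene are given 5′ to 3′ on its own strand, with the letters CACGTG in capitals. CACGTG reads the same on both strands, and it is the core that MYC and the USF factors are known to recognise. The sequences and coordinates are those of RefSeq for GRCh38.p14, BAX at chr19:48954625-48954874 on the plus strand and BBC3 at chr19:47232668-47232917 on the minus strand.
BAX: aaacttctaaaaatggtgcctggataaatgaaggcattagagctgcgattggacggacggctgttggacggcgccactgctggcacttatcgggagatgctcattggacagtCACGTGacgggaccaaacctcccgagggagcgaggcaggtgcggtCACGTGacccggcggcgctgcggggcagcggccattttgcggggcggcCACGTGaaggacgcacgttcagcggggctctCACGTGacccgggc
BBC3: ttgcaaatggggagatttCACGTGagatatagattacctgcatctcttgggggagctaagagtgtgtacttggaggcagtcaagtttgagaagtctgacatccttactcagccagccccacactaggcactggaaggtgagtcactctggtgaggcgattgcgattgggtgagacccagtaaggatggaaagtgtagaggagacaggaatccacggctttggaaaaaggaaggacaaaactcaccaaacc

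The BAX stretch held CACGTG 4 times and the BBC3 stretch once. Over windows that run on 50 bases past the start, 300 bases in all, CACGTG was found in 7.26% of the 35116 RefSeq windows and 3 or more times in 0.094%. The BAX window also held 38 CG pairs and the BBC3 window 5, where the median window held 14, and 90.1% and 29.6% of windows held fewer. GGGCGG, the core that SP1 recognises, stood 2 times in the BAX window, counting both strands, and not in that of BBC3, and 45.0% of windows held it. Windows were found for 9 of the 10 members, and MCL1 had none. Of the other members, PMAIP1 held 42 CG pairs, BCL2L11 39, BCL2 31 and BID 6 to 37 over its 5 windows, of which 2 also held CACGTG once. BAD held 21 and 24 and BCL2L1 20 and 16, over 2 windows each. BAK1 held 7 and, as the only member with a window, a match to the p53 half-site, found in 6.63% of windows. Sites outside these windows were not looked for. The motifs were chosen with the windows in view, and a match is a description of the letters only.

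Summed over each class, the guardians were higher in siG9a and the killers slightly lower. The 3 guardians together measured 153, 106, 141 and 143 CPM in control and 269, 155, 172 and 216 CPM in siG9a, a mean of 135.7 ± 20.3 CPM against 202.9 ± 51.1 CPM (SD, n = 4 each). The groups did not overlap, but only narrowly, with siG9a 2 at 154.95 CPM and control 1 at 152.87 CPM. The 7 killers together measured 286, 382, 454 and 348 CPM in control and 269.8, 335, 417 and 334 CPM in siG9a, a mean of 368 ± 70.2 CPM against 339 ± 60.5 CPM. The killers were lower in all 4 pairs, by less than the spread between libraries. Killers divided by guardians gave 1.87, 3.59, 3.23 and 2.44 in control and 1.00, 2.16, 2.43 and 1.55 in siG9a. The ratio was thus lower in each pair, at 0.536, 0.601, 0.753 and 0.634 of control, while its groups overlapped. These sums carry no test, since the members were chosen as a set.

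The sums hid opposite movements and rested on 1 gene each. MCL1 made up 73.5% to 87.4% of the guardian reads in control and 84.8% to 93.1% in siG9a, and BAX 49.9% to 59.8% of the killer reads in control and 28.9% to 53.6% in siG9a. Without MCL1 and BAX the direction of the means turned: the remaining guardians stood at 0.875 of control, the remaining killers at 1.13, and their ratio at 1.25. These differences lay within the SD. Control and siG9a measured 25.1 ± 8.61 and 22.0 ± 4.42 CPM for the guardians, and 168 ± 34.5 and 191 ± 26.8 CPM for the killers (SD, n = 4 each). Control 4 held the highest guardian sum, 37.9 CPM. In pair 2 the guardians rose from 21.3 to 23.6 CPM, and the ratio was 8.29 in control and 8.28 in siG9a. Within the killers, the 2 effectors were lower in sum in each pair, at 0.652, 0.662, 0.822 and 0.846 of control. The sum of the 5 BH3-only genes was higher in each, at 1.36, 1.29, 1.06 and 1.20 of control. Taken singly, only BBC3 of these 5 was higher in 4 of 4 pairs, and BID was lower in 4 of 4.

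**Figure D3:**
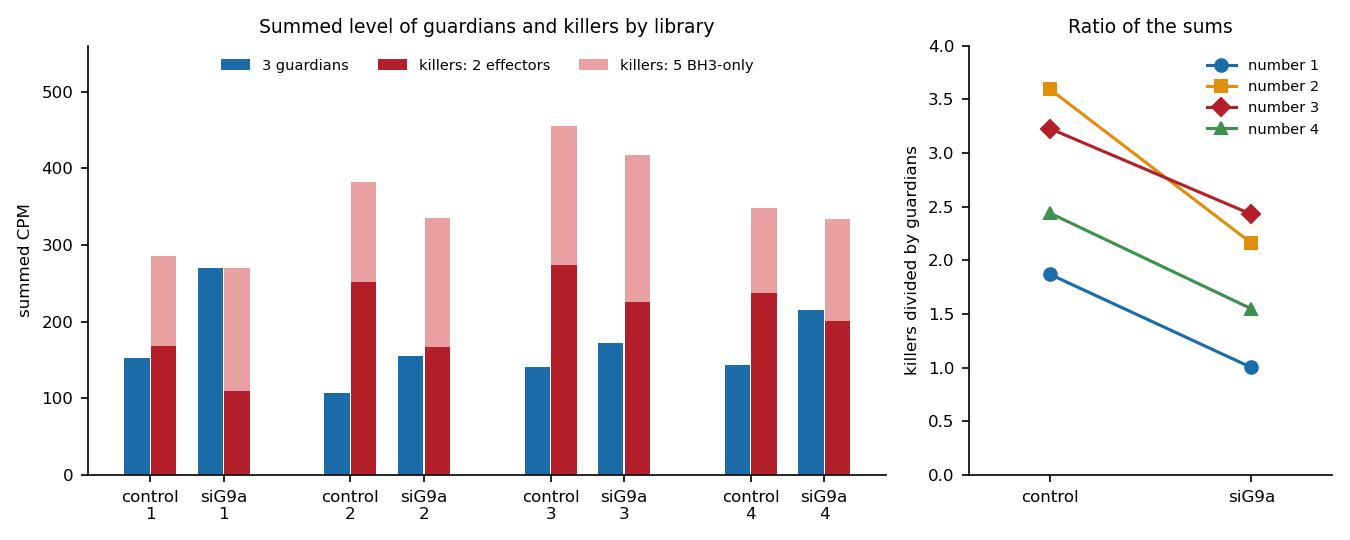
Left, summed CPM of the 3 guardians (blue) and of the 7 killers (red, effectors below and BH3-only genes above) in each library; right, killers divided by guardians with lines joining libraries of the same number. The ratio descends in all 4 pairs, from 1.87 to 3.59 in control to 1.00 to 2.43 in siG9a.

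The members ranked from BAX, with a mean over all 8 libraries of 174 CPM, and MCL1 (146 CPM) to BCL2L11 (5.76 CPM) and BCL2 (4.91 CPM). The top of this order turned between the groups: BAX had the higher mean in control (199 against 110.6 CPM) and MCL1 in siG9a (180.9 against 148 CPM). PMAIP1 (56.3 CPM), BBC3 (43.4 CPM), BAK1 (30.7 CPM), BID (24.6 CPM), BAD (18.7 CPM) and BCL2L1 (18.6 CPM) lay between. In this order only 2 neighbouring steps exceeded the larger SD of the 2 genes. MCL1 was above PMAIP1 in 8 of 8 libraries, and BCL2L1 above BCL2L11 in 7 of 8. The order of the other neighbours was not settled by these libraries.

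For each of the 10 members the means of the 4 replicate numbers spanned more than the difference between the 2 groups. For BBC3 the means of the 4 numbers spanned 55.8 CPM, against 22.5 CPM between the groups, and for BAX 109 CPM against −50.9 CPM. For MCL1 the span was 84.0 CPM against 70.4 CPM. A span over 4 means of 2 libraries each tends to exceed a difference between 2 means of 4 libraries, even without a replicate effect. The comparison is therefore a description, and no weight of number against group is read from it. Number 3 was the highest in both groups for BAX, BBC3 and BCL2L11 and the lowest in both for BID, the same libraries in which muscle markers were low. Mitochondrial transcripts made up 6.01% ± 2.16 of reads in control and 9.21% ± 4.02 in siG9a (SD, n = 4 each) and were higher in siG9a in 4 of 4 pairs, as MCL1 and BBC3 were, and their part in the result was not tested. With the libraries rescaled by median ratios, which does not rest on the library total, the paired limma changes were 0.67 for MCL1 (adjusted p = 0.00531), 0.88 for BBC3 (0.00661) and −0.49 for BAX (0.0420).

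For each member above 10 CPM, the gene with the most similar profile over the 8 libraries was taken from 8890 genes, by Pearson's r of log2(CPM + 1), as a description. All of these values share libraries, depth and the split between numbers. For BID it was MLLT11 (r = 0.996), for BBC3 CAAP1 (r = 0.992), for BAX MON1B (r = 0.990), for BCL2L1 S100A13 (r = 0.986), for MCL1 LINC00998 (r = 0.980), for BAD PHF1 (r = 0.975), for PMAIP1 GLOD4 (r = 0.930) and for BAK1 POLDIP2 (r = 0.891). BID had 349 genes above an r of 0.9, BAX 193, BBC3 122, MCL1 55 and BCL2L1 19, whereas BAK1 had none.

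Of 15 other members of the family, 10 were high enough to test and 2 were called in the paired fit, both higher in siG9a, beside 11.4% of all genes called and 4.86% called higher, and none in the limma fit without pairing. BCL2L12, an atypical relative, measured 115, 126, 119 and 115 CPM in control and 187, 183, 198 and 139.9 CPM in siG9a. All siG9a values lay above all control values, and the log2 change was 0.56 (adjusted p = 0.0156, paired limma fit). BCL2L13, a protein of the outer mitochondrial membrane known as a receptor for mitophagy, averaged 21.2 ± 6.50 CPM in control and 35.4 ± 10.4 CPM in siG9a, a log2 change of 0.72 (adjusted p = 0.0437, paired limma fit). Without number 3 the changes were 0.50 and 0.67, and neither was called by limma (adjusted p = 0.105 and 0.143), where 7.14% of all genes were. BCL2L12 lies over IRF3 on the opposite strand, which averaged 45.2 CPM, and the strand setting of the counting is not given in the sources used here.

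The remaining 8 were not called. The BH3-only gene HRK averaged 4.21 CPM in control and 8.65 CPM in siG9a and was higher in every pair, with a log2 change of 1.02 and an adjusted p of 0.107 (paired limma fit). In pair 1 its values (0 and 1 read), and in pair 2 its control (2 reads), lay under the limit of 3 reads. BMF, also BH3-only, averaged 18.4 and 25.6 CPM, and the effector relative BOK 21.2 and 13.8 CPM, lower in every pair (−0.59, adjusted p = 0.180 in the paired limma fit). BNIP3 (7.10 and 12.5 CPM) and BNIP3L (34.6 and 56.2 CPM), which act mainly in mitophagy, had adjusted p-values of 0.141 and 0.244 in the same fit. BNIP3L was higher in 2 of 4 pairs, and siG9a 1 (125 CPM) stood far above the other siG9a libraries (22.3 to 41.3 CPM). The guardian BCL2L2 averaged 4.63 and 5.58 CPM, BCLAF1, a nuclear factor named for binding BCL2, 343 and 322 CPM, and BCL2L15 1.85 and 0.438 CPM, under the limit of 3 reads in siG9a. The median log2 change of the 10 tested was 0.47.

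The counts for the lists that follow stand beside the 11.4% of all genes that the same paired fit called, and nothing particular to a list is read from them. Downstream of the members, 1 of 14 tested genes of cytochrome c release, the apoptosome and the caspases was called in the paired fit. DIABLO, whose protein leaves the mitochondrion to relieve the block on caspases, fell from 62.3 ± 19.7 to 40.8 ± 9.09 CPM (−0.58, adjusted p = 0.0485, paired limma fit), with no overlap between the groups. Without number 3 its change was −0.58 with an adjusted p of 0.139 by limma, and DESeq2 with pairing gave 0.119, so neither called it. The list's median was 0.06. Of 7 inhibitors of apoptosis, 5 were tested and 1 was called. BIRC5, which encodes survivin and is also a protein of dividing cells, measured 184, 179, 225 and 131 CPM in control and 94.9, 67.2, 96.5 and 105.5 CPM in siG9a. All its siG9a values lay under all control values, and the log2 change was −0.97 (adjusted p = 0.000469, paired limma fit; 0.0131 without number 3). The list's median was −0.41.

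Upstream, 0 of 10 tested genes of the death receptor pathway were called, with a median of 0.22. TNFRSF1A, the TNF receptor, averaged 46.2 and 38.7 CPM in control and siG9a, and the adaptor FADD 41.8 and 40.5 CPM. Of 12 tested transcription factors known to act on BH3-only genes, 2 were called and both fell in the paired limma fit. JUN went from 818 ± 231 to 544 ± 196 CPM (−0.61, adjusted p = 0.0223) and ATF4 from 766 ± 83.8 to 572 ± 79.2 CPM (−0.43, adjusted p = 0.0416), the latter with no overlap between groups. JUN was lower in 3 of 4 pairs and higher in pair 4 (698 CPM in control and 828 CPM in siG9a), and its groups overlapped. Without number 3 the changes were −0.63 and −0.41 and neither was called by limma (adjusted p = 0.0911 and 0.173). The list's median was −0.04. Among 8 tested genes that govern the turnover of BCL2 family proteins, none was called and the median was 0.07. HUWE1, a ubiquitin ligase of MCL1, averaged 247 and 232 CPM, and the adaptor YWHAZ 207 and 164 CPM. Without pairing, limma and edgeR called no gene of these lists, and DESeq2 called 1 of them, BIRC5 (adjusted p = 0.0111).

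**Figure D4:**
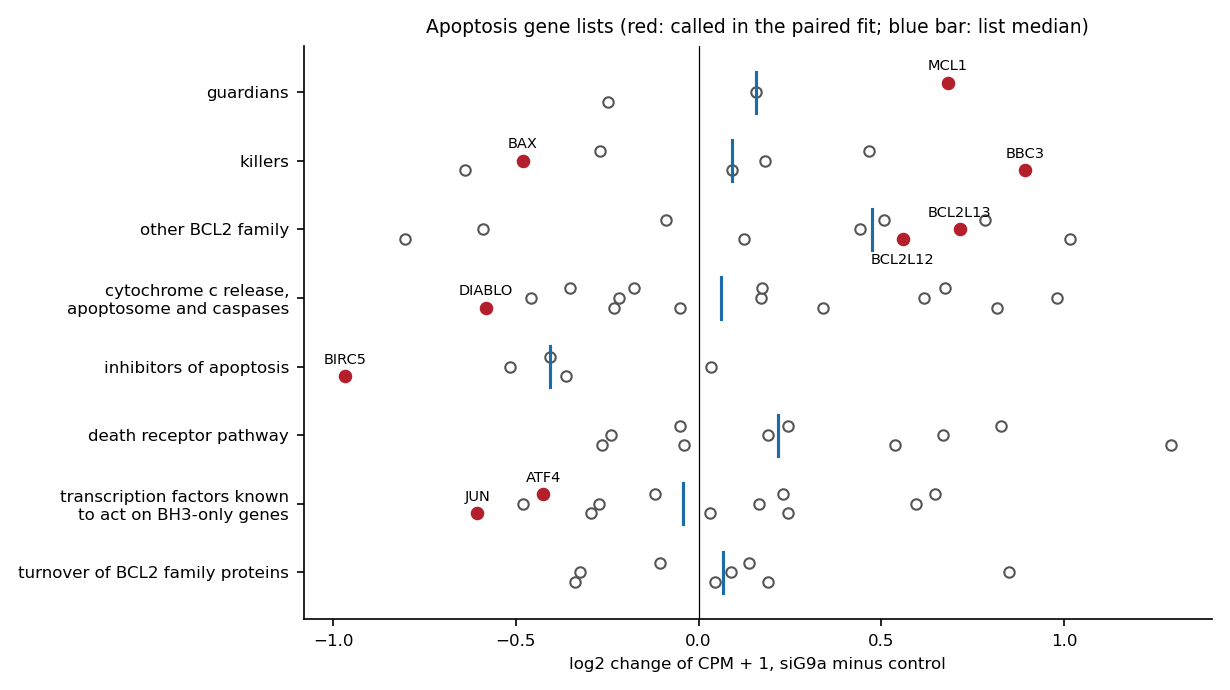
Log2 change of CPM + 1, siG9a minus control, of every tested gene of the 8 lists (horizontal axis; 1 row for each list); red points were called in the paired fit and blue bars are list medians. The 9 red points fall on both sides of 0, with MCL1, BBC3, BCL2L12 and BCL2L13 to the right and BAX, DIABLO, BIRC5, JUN and ATF4 to the left.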

How the data were processed

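The deposited table gives CPM to 2 decimals for 60234 genes, per the file header, in 8 Rh41 libraries. The authors used FastQC 0.11.8, Trim Galore, STAR 2.5.0a, HTSeq 0.8.0 and edgeR 3.28, and builds GRCh38 and hg19, per the submitters' processing notes, which give no roles; the strand setting and the annotation are not given in the sources used here. All deposited CPM values were whole multiples of 1 read within rounding (0.005 CPM), so whole reads were recovered, and intervals and floors from them cover counting error only.

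The main test was limma 3.58.1 (R 4.3.3) on log2(CPM + 1) with a trend, two-sided, for genes averaging 1 CPM or more, with Benjamini-Hochberg adjustment over all 15092 genes. The pseudocount understates changes of low genes. The paired fit adds the replicate number as a block. The numbers come from the sample titles, and deviations from the group means correlated at 0.500, 0.104, 0.673 and 0.130 for numbers 1 to 4, all over 0.1, which was the rule for treating the numbers as pairs. Number 2 correlated at up to 0.144 with another number, and the own number was not the best match for control 2 or siG9a 4. Alternatives were other pseudocounts, filters and scalings, edgeR 4.0.16 and DESeq2 1.42.0 on the recovered reads, and leaving out libraries or pairs.

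The members, the lists and the naming rule were chosen with earlier results of these data known. All members, the other family genes above 1 CPM, EHMT2, and from each further list the called genes (at most 4), or the 2 highest where none was called, are named. In GENCODE 29, BAX, BID, PMAIP1 and BCL2 overlap no other gene. BAD overlaps GPR137 (13.1 CPM) on the opposite strand, and BAK1 and MCL1 overlap genes at 0 CPM here. BBC3 overlaps MIR3191 on the same strand, at 0 CPM, and MIR3190 on the opposite strand. BCL2L1 overlaps ABALON and BCL2L11 overlaps MIR4435-2HG, both on the opposite strand, and DIABLO overlaps the protein-coding AC048338.1 on the same strand. MIR3190, ABALON, MIR4435-2HG and AC048338.1 had no level under these names.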

Additional observations from a re-analysis of the deposited data

Results flagged for a closer look

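Within groups of 4, 3 of 58 groups over the 29 named genes held 1 library far from the others by Dixon's ratio, where chance alone flags about 2.9, or 1 in 20. BCL2 was 7.22 CPM in siG9a 1, against 4.00 to 4.24 CPM in the other siG9a libraries. BCL2L11 was 11.68 CPM in control 3, against 2.60 to 3.43 CPM in the other controls. HRK was 13.53 CPM in control 3, against 0 to 2.08 CPM in the other controls. The last 2 are in number 3, the pair with low muscle markers.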

How the results depend on the processing

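No member was called by any fit without pairing. The count of all genes called, 0 in the reported fit, was 18 with no filter on low values, 291 with DESeq2, and 0 to 413 when 1 library or 1 number was left out, with 413 without number 3, 300 without control 3 and 2 without siG9a 4. With the replicate block it was 1717, and 1711 with edgeR, 969 with DESeq2, 1363 and 1710 with pseudocounts of 0.1 and 5 and 1694 with median-ratio scaling, the last 3 chosen after seeing the data. Without numbers 1 to 4 in turn the block fit called 951, 668, 1078 and 1393 genes. Fits on 3 pairs hold fewer samples. In every one of these block fits 1 guardian, MCL1, was called. Of the killers, 2 were called in the block fit, without number 3 or 4, with a pseudocount of 5 and with median-ratio scaling, and 1 otherwise; leaving out 1 library or number without the block gave 0 for both classes. The cause of these differences was not tested.

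Low members changed sign. BCL2 gave a log2 change of −0.0253 with edgeR and −0.0258 with DESeq2, −0.0873 and −0.0880 in the block fit without number 1 or 2, and −0.13 to 0.63 when 1 library or number was left out. BCL2L11 gave −0.0753 in the block fit without number 1 and −0.40 to 0.56 over libraries left out. BAD gave −0.0924 in the block fit without number 3 and −0.11 to 0.42. The cause was not tested. The other 7 members kept their direction in all alternatives run. The sums were recomputed only without MCL1 and BAX: siG9a over control went from 1.495 to 0.875 for the guardians, from 0.922 to 1.13 for the killers and from 0.641 to 1.25 for their ratio. DESeq2 with the block gave no adjusted p for BCL2 and BCL2L11. Both genes rest on few reads: 1.15 CPM of BCL2L11 was 2 reads.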

Other observations

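MARCH5, a mitochondrial ubiquitin ligase known to act on MCL1, lay outside the naming rule and was chosen after its values were seen. It measured 11.7, 13.4, 14.1 and 6.75 CPM in control and 21.7, 16.3, 19.4 and 26.95 CPM in siG9a. All siG9a values lay above all control values. The paired limma fit gave an adjusted p of 0.0580, so it was not called. RIPK1, a kinase of the death receptor pathway likewise chosen after its values were seen, measured 6.17, 7.29, 8.61 and 11.9 CPM in control and 16.5, 13.9, 12.0 and 20.65 CPM in siG9a, again with no overlap, and was not called either (adjusted p = 0.0715, paired limma fit). CASP2, of the caspase list, also separated, narrowly, with 50.4 to 71.95 CPM in control and 72.21 to 84.5 CPM in siG9a, and was not called. Of all genes tested, 7.32% showed no overlap, so nothing particular to these genes is read from it.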
